A study of Ovis aries with 6 samples.

Results

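The miRNAs described here are miR-1, miR-133 and miR-206, the small RNAs most closely tied to striated muscle, with all of their arms and loci. They were taken by name from the deposited count table: after the species prefix was removed, every name equal to miR-1, miR-1a, miR-1b, miR-133, miR-133a, miR-133b, miR-133c or miR-206, or one of these followed by a hyphen and an arm or locus, was kept. This gave 16 of 10430 names, which stand on 45 of 11161 rows and hold 36 distinct sequences. Where a name had several rows, the one with most counts was used. The samples were 3 libraries of Qianhua Mutton Merino (QHMM) and 3 libraries of Small Tail Han (STH) sheep, all from longissimus muscle, the long muscle of the back. Both breeds were kept under natural conditions according to the labels, which give no age, no sex and no treatment other than breed. Whether the libraries are from different animals is not in the labels, so that each p-value reflects the spread between libraries alone, which may be technical.

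miR-1 and miR-133 are made from shared precursors: in mammals a miR-1 and a miR-133a hairpin stand together in a pair of clusters on different chromosomes, and miR-206 stands with miR-133b in another. Each hairpin gives a 5p and a 3p arm, and one of them, here the 3p arm, is kept at far higher level. In mouse myoblasts miR-1 promotes differentiation and represses the histone deacetylase HDAC4, miR-133 promotes proliferation and represses the serum response factor SRF, and miR-206, which is made in skeletal muscle and hardly in heart, promotes differentiation. A miRNA finds its targets mainly through its seed, bases 2 to 8 from the 5′ end.

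The sequences of the leading rows are shown with the seed in capitals, because the family falls into groups by seed. They are read from the deposited table, 5′ to 3′, with T for U.
miR-1 (predicted hairpins on chromosomes 13 and 23): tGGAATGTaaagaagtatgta
miR-206-3p (predicted hairpin on chromosome 20): tGGAATGTaaggaagtgtgtg
miR-133 (sheep miRNA): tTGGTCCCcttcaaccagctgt
miR-133a-3p (rat, mouse and human name): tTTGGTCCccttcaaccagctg
miR-133c (3p arm of the miR-133b hairpin on chromosome 20): tTGGTCCCcttcaaccagct

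miR-1 and miR-206 carried the same seed, GGAATGT, and differed over 21 aligned nt at 3 positions, A11G, A17G and A21G (base of miR-1, position from the 5′ end, base of miR-206), all of them after the seed. Among the 45 rows, 12 had this seed and together held 32069958 counts over the 6 libraries. Of these, 15252614 and 15246440 stood on the 2 rows with the same miR-1 sequence, so that reads listed at both would count more than once. The sheep entry of miR-133 starts 1 nt later than the miR-133a-3p entry of rat, mouse and human and matches it over 21 nt, so that the 2 entries have different seeds. The 2 rows with the later start and the seed TGGTCCC held 4832766 counts, against 62 counts for the 6 rows with the seed TTGGTCC. How reads that begin 1 nt apart were assigned to these rows is not given in the sources used here, and the counts do not show which start the molecules had. The 20 nt of the miR-133c row are the first 20 nt of miR-133, and it ends before G21A (base and position of miR-133, then the base of the miR-133b-3p entries), where the 3p arms differ. The miR-133c row therefore does not separate reads of miR-133a and miR-133b, while the 22 nt of the miR-133 row hold the differing base. The sources used here do not say whether reads with either base were counted to the miR-133 row.

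The muscle miRNAs took a large share of every library. CPM values are counts per 1000000 counts of the library over all names, with 1 row per name, a total that was 5572865 to 7546762 counts in QHMM and 6172849 to 7930202 in STH. The 16 names together held 53.1 ± 1.50% (SD, n = 3) of the counts in QHMM and 50.1 ± 4.51% (SD, n = 3) in STH, with STH replicate 1 lowest at 45.0%. The miR-1 row on chromosome 23 is left out of this share and of its total. Over all rows, the rows of these names held 63.01% to 66.87% of the counts in QHMM and 57.02% to 65.85% in STH. Reads listed at both miR-1 rows would count more than once in the share over all rows. miR-1, miR-133 and miR-206-3p ranked 1, 2 and 4 among all names by mean CPM, and the next member, the 5p arm of miR-1, ranked 87. QHMM replicate 3 stood apart by miR-451-5p of red blood cells, at 82384 CPM, against 18703 and 19640 CPM in the other QHMM libraries and 7083 to 13597 CPM in STH. In a bulk sample, fewer fibres and less of a miRNA per fibre cannot be told apart.

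miR-1, listed under the rat name miR-1b, had 339105, 419493 and 340286 CPM in QHMM replicates 1 to 3, against 315840, 380761 and 398504 CPM in STH. The libraries of both breeds were interleaved, and the spread was small, with a coefficient of variation of 10.96% over the 6 libraries. For comparison, the median coefficient of variation was 21.2% over the 65 other names with a mean of at least 1000 CPM. miR-1 makes up a large part of the total behind its CPM, which narrows its spread beside that of less abundant names. miR-133 had 158425, 89730 and 145813 CPM in QHMM, against 94432, 92803 and 98909 CPM in STH. QHMM replicates 1 and 3 lay above every STH library and QHMM replicate 2 lay below all of them, so that the breeds overlapped and miR-133 varied by 26.9% over the 6 libraries. miR-206-3p had 33291, 35806 and 28539 CPM in QHMM, against 38825, 40746 and 38267 CPM in STH. Every QHMM library lay below every STH library, with a coefficient of variation of 12.4% over all 6.

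**Figure D1:**
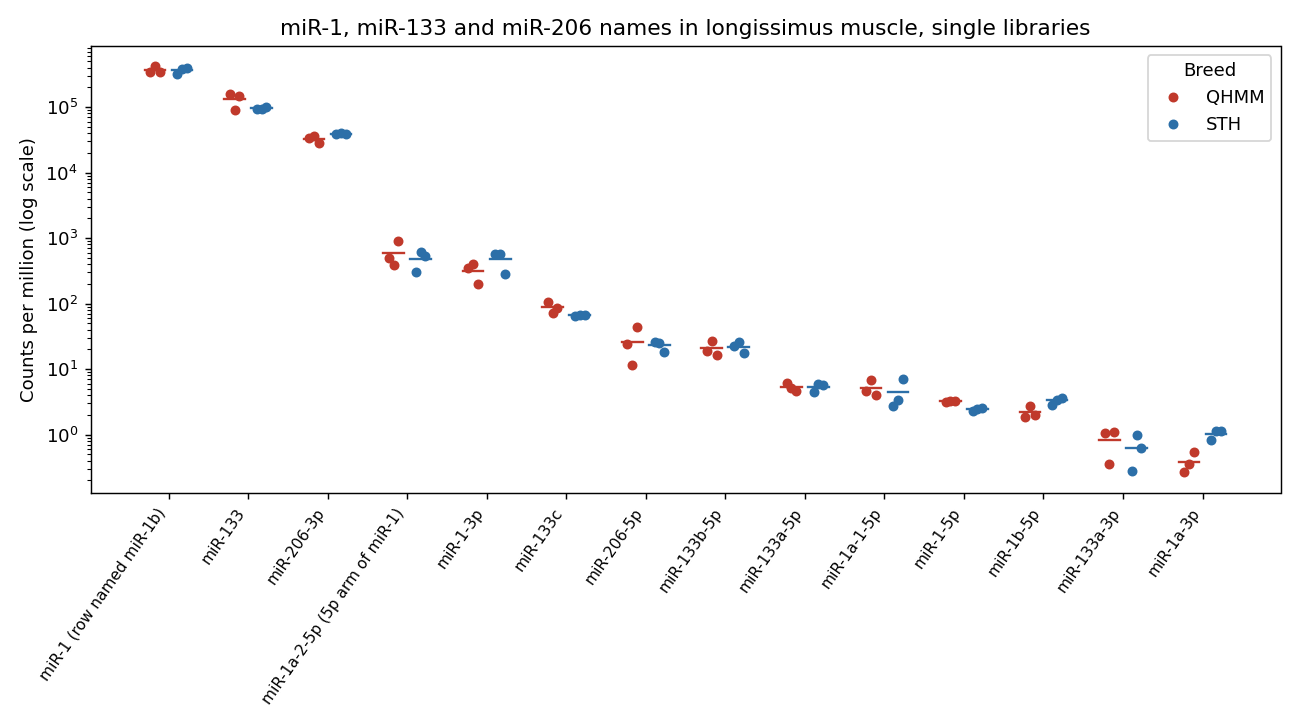
CPM on a log scale of 14 of the 16 names in single libraries, with QHMM left of STH and the mean of 3 libraries as a horizontal line. The 3 leading members lie at 28539 CPM or more and all other members below 1000 CPM, and miR-133b-3p and miR-1b-3p, at 0 in some libraries, are not drawn.

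The remaining names lay far lower. The human entry miR-1-3p, which is miR-1 with 1 base more at its 3′ end, had 347, 399 and 197 CPM in QHMM and 573, 561 and 278 CPM in STH. miR-133c had 107, 72.3 and 84.8 CPM in QHMM and 64.5, 66.1 and 67.5 CPM in STH. All QHMM values of miR-133c lay above all STH values, although QHMM replicate 2 was close to the STH libraries, as for miR-133. The 5p arms of miR-206 and miR-133b had means of 24.7 and 21.2 CPM over the 6 libraries. miR-133a-5p, miR-1a-1-5p, the short miR-1-5p row and miR-1b-5p had means of 2.75 to 5.34 CPM. miR-133a-3p and miR-1a-3p had 31 and 30 counts over all libraries, miR-133b-3p had 6 and miR-1b-3p a single count. A count of 0 in a library allows up to 3 counts, and such limits cover counting error only.

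Ratios within a library need no scaling between libraries, and they compare the leading rows of the 3 miRNAs. The miR-1 count is that of the row on chromosome 13, 1 of 2 rows with its sequence. With both rows counted, the values per 100 miR-1 counts would be lower. Per 100 counts of miR-1, miR-133 had 46.7, 21.4 and 42.9 counts in QHMM, against 29.9, 24.4 and 24.8 in STH. The ratio was high in QHMM replicates 1 and 3 only, and the difference was within the spread between libraries (36.99 ± 13.6 in QHMM and 26.4 ± 3.07 in STH, SD, n = 3; two-sided exact permutation test on log2 ratios, p = 0.40, with 0.10 the smallest p of 3 libraries against 3). Per 100 counts of miR-1, miR-206-3p had 9.82, 8.54 and 8.39 counts in QHMM, against 12.3, 10.7 and 9.60 in STH. Only QHMM replicate 1 and STH replicate 3 overlapped here (8.91 ± 0.787 in QHMM and 10.9 ± 1.35 in STH, SD, n = 3; exact permutation test, two-sided, p = 0.20). Per 100 counts of miR-133, miR-206-3p had 21.01, 39.9 and 19.6 counts in QHMM, against 41.1, 43.9 and 38.7 in STH (exact permutation test, two-sided, p = 0.20, n = 3 each). QHMM replicate 2 lay within the STH libraries for this ratio, and the other QHMM libraries lay near 20. The log2 difference for miR-133 to miR-1, QHMM minus STH, was 0.41, and it was 0.77 without QHMM replicate 2 and 0.21 without QHMM replicate 1. With all rows of each name summed it was also 0.41. In all 8 ratios or shares were compared between the breeds, of which none could pass 0.05 in this design, and adjusted over the 8 by Benjamini and Hochberg the exact permutation p was 0.533 to 0.800.

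**Figure D2:**
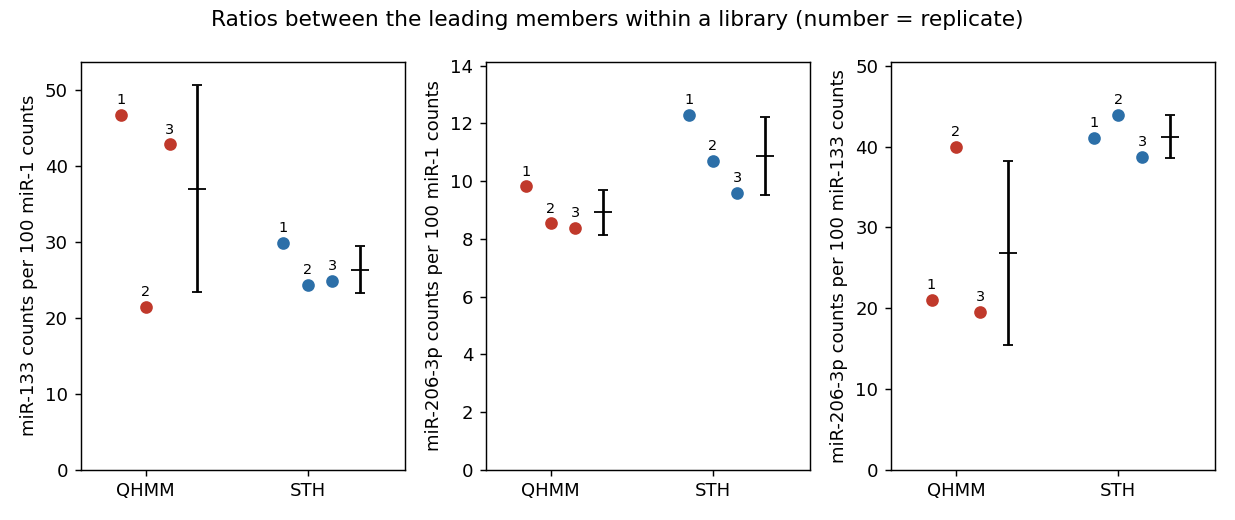
Counts of one leading miRNA per 100 counts of another within each library, with QHMM left of STH. The miR-1 counts are those of the row on chromosome 13 alone. Points are libraries with their replicate number, and the black mark beside them gives the mean, with the SD as bar, over the 3. QHMM replicate 2, at 21.4 miR-133 counts per 100 miR-1 counts, lies apart from QHMM replicates 1 and 3.

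The rows of both miR-1 hairpins could be told apart by their 5p arms. The 3p arm is the same 21 nt at both loci, and the rows on chromosomes 13 and 23 had nearly the same count in each library: 2559142 and 2556078 in QHMM replicate 1, and 2312382 and 2310644 in STH replicate 1. The difference was 0.00853% to 0.120% of the count over the 6 libraries. Its sign varied: chromosome 13 minus chromosome 23 was 3064, 508 and -216 counts in QHMM, against 1738, -1741 and 2821 in STH. The 3p counts therefore do not separate the loci, and whether the same reads were listed at both was not tested. If reads were divided between the rows, a single row holds only a part of miR-1. The main levels and ratios given for miR-1 rest on a single row. The 5p arms differ by a single base, which is shown in capitals.
miR-1 5p arm, chromosome 23: acatacttctttatgtAcccat
miR-1 5p arm, chromosome 13: acatacttctttatgtGcccat

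The difference is A17G, with the chromosome 23 base first and the position counted from the 5′ end, and it lies outside the seed CATACTT that both arms share. Both rows carry the mouse name miR-1a-2-5p, of which the chromosome 23 row had the higher total. The chromosome 23 form had 3732, 2163 and 6797 counts in QHMM, against 2201, 3736 and 4232 in STH. The chromosome 13 form had 2453, 1709 and 4247 counts in QHMM, against 926, 1664 and 2572 in STH. In every library the chromosome 23 form was the more abundant of both, and QHMM replicate 3 was the highest library for each form.

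The chromosome 23 form made up 60.3%, 55.9% and 61.5% of the 5p arm counts in QHMM, against 70.4%, 69.2% and 62.2% in STH. No QHMM library reached the level of any STH library, although QHMM replicate 3 (95% Wilson interval 60.6 to 62.4%) and STH replicate 3 (61.0 to 63.3%) agree within counting error. The mean was 59.2 ± 2.99% in QHMM and 67.3 ± 4.42% in STH (SD, n = 3), and the exact permutation test, two-sided, gave p = 0.10, the smallest value that 3 against 3 allow. This share was chosen after the counts were seen. With 1 feature per distinct sequence, edgeR gave the chromosome 13 form a log2 fold change, QHMM over STH, of 0.72 (standard error 0.37, adjusted p = 0.429) and the chromosome 23 form 0.28 (standard error 0.36, adjusted p = 0.775).

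**Figure D3:**
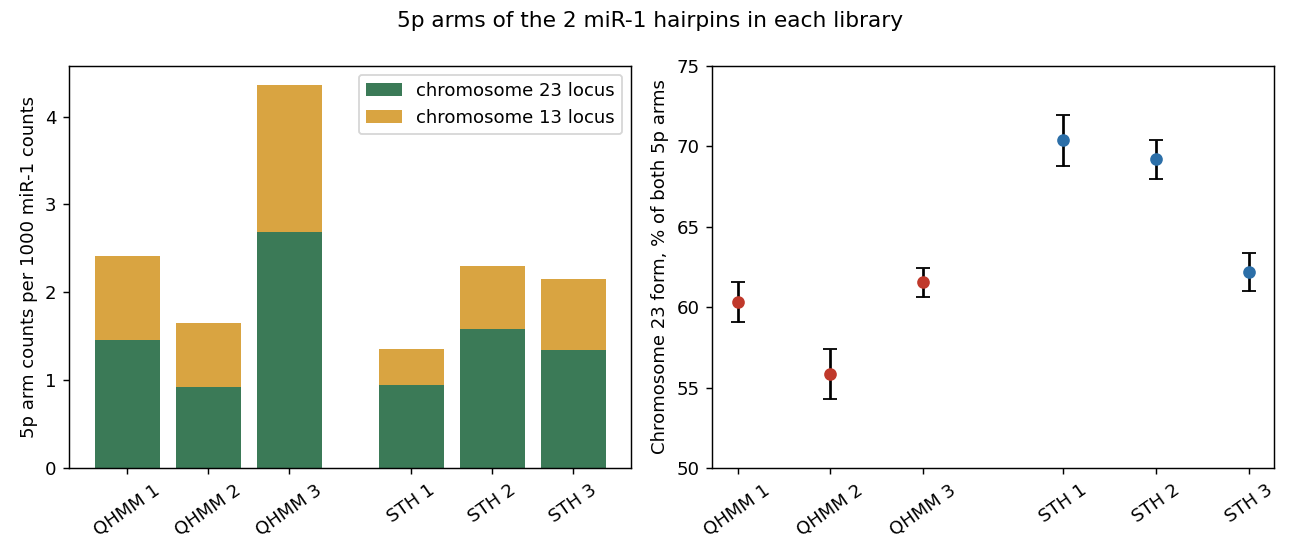
Left, counts of both miR-1 5p arms per 1000 counts of the miR-1 row on chromosome 23, stacked by locus, in each library. Right, the chromosome 23 form as a percentage of both arms, with 95% Wilson intervals that cover counting error only, on an axis from 50 to 75%. The 3 QHMM libraries lie between 55.9% and 61.5% and the 3 STH libraries between 62.2% and 70.4%.

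The 5p arms of miR-1 and miR-206 varied more between libraries than their 3p arms: the highest library was 3.04 and 3.73 times the lowest in CPM, against 1.33 and 1.43 times for the 3p arms. For the 3p arm of miR-1, its large part of the total narrows this range. Both miR-1 5p arms together had 2.42, 1.66 and 4.36 counts per 1000 counts of the miR-1 row on chromosome 23 in QHMM, against 1.35, 2.30 and 2.15 in STH. Here the 5p arms of both hairpins stand over a single row of the 3p arm, so that the level is not comparable with that of miR-206. The 5p arm of miR-206 had 0.712, 0.326 and 1.53 counts per 1000 miR-206-3p counts in QHMM, against 0.668, 0.612 and 0.478 in STH. QHMM replicate 3 was the highest library for both, and QHMM replicate 2 was the lowest for miR-206. The breeds overlapped for both ratios (exact permutation tests, two-sided, p = 0.40 and p = 0.70, n = 3 each). Without QHMM replicate 3 the log2 fold change of the miR-1 5p arm in edgeR was -0.17 in place of 0.29, and that of the miR-206 5p arm was -0.45 in place of 0.16. The same library stood apart in blood: the 7 names of the red blood cell list summed to 84308 CPM there, against 18967 and 19922 CPM in the other QHMM libraries and 7300 to 13838 CPM in STH. In that list miR-451-3p, miR-451a and miR-486-3p were at 0 in at least 1 library. The part of blood in the level of the 5p arms was not tested.

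The 5p arms of miR-133a and miR-133b differ at 3 positions, A8C, T12C and A21G (base of miR-133a-5p, position in it, base of miR-133b-5p), so that these arms can be told apart. The differing bases are in capitals.
miR-133a-5p (human name): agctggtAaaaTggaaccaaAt
miR-133b-5p (hairpin on chromosome 20): gctggtCaaaCggaaccaaG

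miR-133b-5p had 140, 149 and 123 counts in QHMM, against 165, 158 and 139 in STH. miR-133a-5p had 47, 29 and 34 counts in QHMM, against 33, 36 and 45 in STH. The miR-133b-5p row thus had the higher count in each library, with 298 to 514 counts per 100 miR-133a-5p counts in QHMM and 309 to 500 in STH (exact permutation test, two-sided, p = 0.80, n = 3 each). The miR-133a-5p row is a human entry and the miR-133b-5p row a predicted sheep locus. Whether each row holds all reads of its arm is not given in the sources used here, so that the levels of the arms cannot be ranked. Per 100 counts of miR-133c, the row of the other arm of its hairpin, which can also hold reads of miR-133a, miR-133b-5p had 17.4, 36.97 and 19.5 counts in QHMM, against 34.96, 38.7 and 25.98 in STH (exact permutation test, two-sided, p = 0.30, n = 3 each). QHMM replicates 1 and 3 were the lowest and QHMM replicate 2 lay among the STH libraries. The miR-133a-5p sequence is also held by a rat row with 16 counts in all.

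Several rows of the family carried names or sequences that go against each other. The 21 nt of the mouse row miR-1b-5p are the exact reverse complement of miR-1, and the 21 nt of the rat row miR-133c are the reverse complement of the first 21 nt of miR-133. They had 14 to 29 and 0 to 7 counts per library, so that little antisense sequence was listed beside the sense counts. The pair of rows named miR-1a-1-5p on chromosome 18 matches 17 of 18 nt of the 3p arm of miR-1, with the difference G7A (base and position of miR-1 first), and not a 5p arm. Rows with the same sequence had unequal counts: miR-1 with 1 base more stood on a human, a mouse and a rat row with 16169, 30 and 19 counts. A row is therefore not the count of all reads with its sequence.

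The name miR-1b stood on 12 rows, of which 2 were the miR-1 hairpins and the other 10 were 17 to 22 nt long. The 10 rows together had 0.345% to 0.462% of the miR-1 count of a library. With the highest count stood a 19-nt locus on chromosome 5 with 47491 counts, which matches miR-1 at 18 of 19 nt with the difference T18A. It had 3076, 3153 and 3796 counts per 1000000 miR-1 counts in QHMM, against 2706, 2715 and 3169 in STH. Next came loci on chromosome 22 with 242 to 331 counts per 1000000 miR-1 counts (A9C) and on chromosome 14 with 126 to 188 (G12T). Whether the reads of these loci came from the loci or from miR-1 was not tested. An 18-nt locus on chromosome 1 differed from miR-1 by A11G and A21C and matched 15 of 17 aligned nt of miR-1 and also of miR-206. It had 155, 104 and 116 counts per 1000000 miR-1 counts in QHMM, against 181, 156 and 211 in STH, higher in each STH library. Its log2 fold change in edgeR was -0.58 (standard error 0.29), at an adjusted p of 0.412. miR-206-3p also had a short row, a 17-nt locus on chromosome 5 whose letters are the last 17 nt of the leading row. It had 154, 146 and 163 counts in QHMM, against 211, 212 and 251 in STH. Like the leading row it was lower in every QHMM library, and its log2 fold change was -0.47 (standard error 0.30) at an adjusted p of 0.530 in edgeR.

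**Figure D4:**
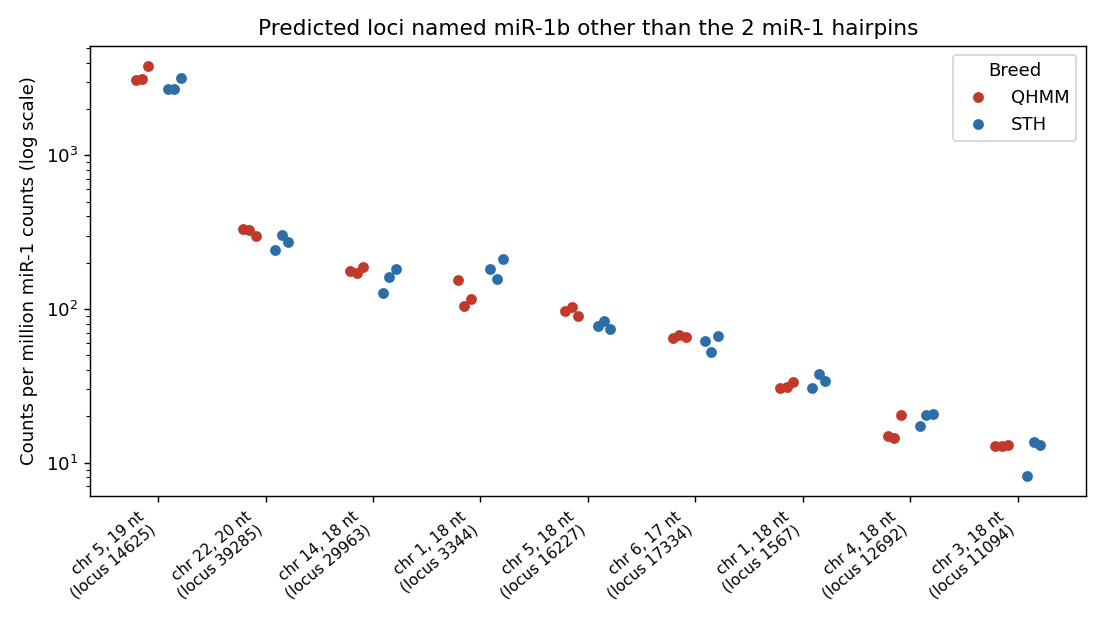
Counts per 1000000 miR-1 counts, on a log scale, at the 9 predicted loci named miR-1b other than both miR-1 hairpins, with their chromosome, length and locus number. QHMM points stand left of STH points and each point is a library. The 19-nt locus on chromosome 5 lies between 2706 and 3796 and all others at 331 or below.

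The breeds were compared with edgeR's quasi-likelihood test over all 1274 names that passed a filter on low counts, with p-values adjusted over all of them by Benjamini and Hochberg. Of the 16 members, 12 passed the filter. The other 4, miR-133a-3p, miR-1a-3p, miR-133b-3p and miR-1b-3p, had too few counts. No member differed between the breeds at an adjusted p of 0.05 with edgeR, and none with DESeq2. Of the 1274 names 28, 2.20%, did with edgeR, and 49 did with DESeq2. A single member, miR-133, had an unadjusted p under 0.05 with edgeR, where 13.7% of all names had one, and none had one with DESeq2. With 1 feature per sequence, 26 member sequences were tested and none passed, where 2.08% of all sequences passed, and 1 had an unadjusted p under 0.05. Of the 12 members 7 had a positive and 5 a negative log2 fold change, with a median of 0.087, against a median of 0.031 over all names.

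miR-1 had a log2 fold change, QHMM over STH, of 0.014 with a 95% interval of -0.40 to 0.42 (adjusted p = 0.979, edgeR). Its mean was 366295 ± 46075 CPM in QHMM and 365035 ± 43518 CPM in STH (SD, n = 3). For miR-133 the log2 fold change was 0.43 with an interval of 0.040 to 0.82 (standard error 0.18, adjusted p = 0.329), with 131322 ± 36568 CPM in QHMM and 95381 ± 3162 CPM in STH. Without QHMM replicate 2 it was 0.58 (adjusted p = 0.110), and without QHMM replicate 1 it was 0.30 (adjusted p = 0.579). For miR-206-3p it was -0.27 with an interval of -0.69 to 0.15 (standard error 0.19, adjusted p = 0.582), with 32545 ± 3690 CPM in QHMM and 39279 ± 1300 CPM in STH. These intervals limit the differences to a log2 value of 0.82 in either direction for the 3 leading members, and the p-values do not show that the breeds were alike.

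Among the less abundant members the log2 fold changes ran from -0.60 for miR-1b-5p to 0.40 for the short miR-1-5p row, with standard errors of 0.27 to 0.43 and adjusted p of 0.507 to 0.990 (edgeR). The libraries of the breeds did not overlap in CPM for 4 of the 12 members: miR-206-3p and miR-1b-5p were lower in all 3 QHMM libraries, and miR-133c and miR-1-5p were higher. Such separation was found for 17.2% of all names tested. For the miR-1-5p row, whose 17 nt are the start of the chromosome 23 form of the 5p arm, it rests on 24, 18 and 24 counts in QHMM, against 17, 15 and 20 in STH.

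**Figure D5:**
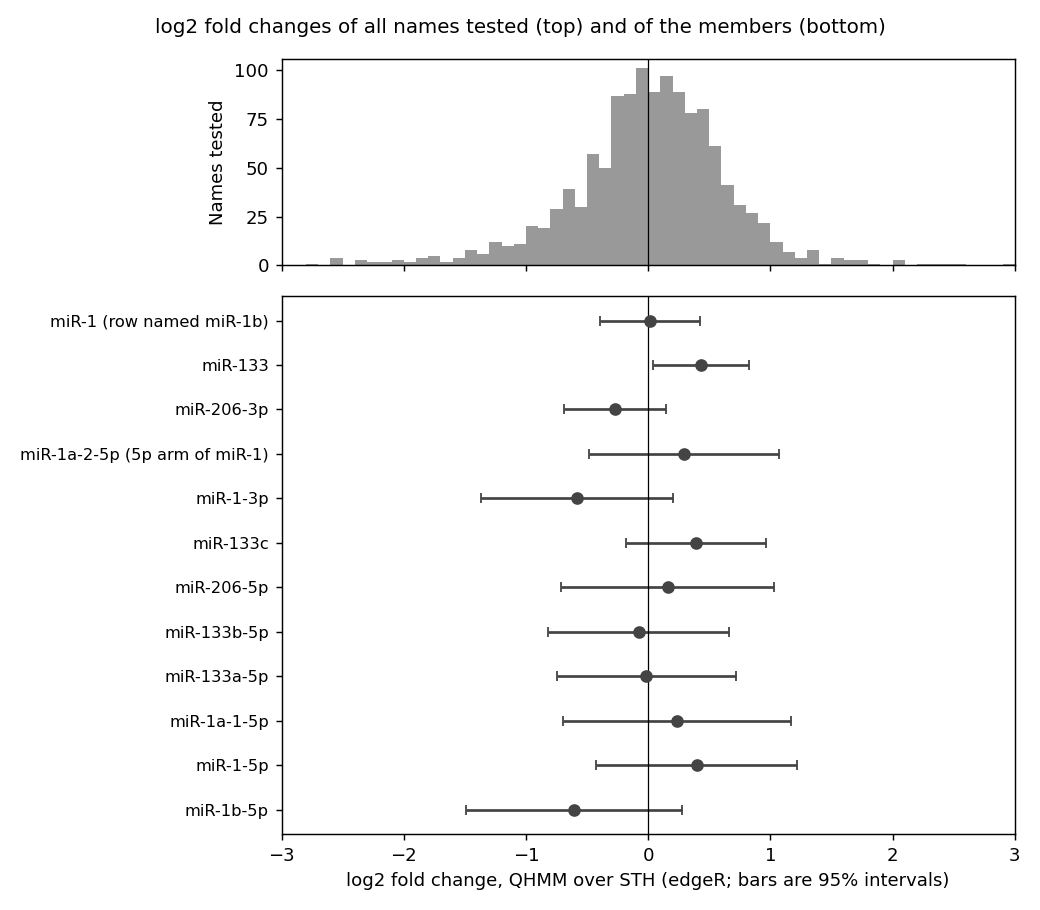
Top, histogram of the log2 fold changes, QHMM over STH, of the 1274 names tested, drawn from -3 to 3, with 9 names outside this range. Bottom, the log2 fold changes of the 12 members tested with their 95% intervals from edgeR, ordered by total count. miR-133 at 0.43 has the one interval that does not hold 0 before adjustment, and the members lie within the bulk of all names.

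Other miRNAs made in muscle fibres were set beside them, from a list of miR-208a, miR-208b, miR-499 and miR-486. Of the 5 tested names on this list 2 passed the threshold with edgeR and 3 with DESeq2, all of them higher in QHMM, and all 5 had positive log2 fold changes, with a median of 1.27. The 5 names were both arms of miR-499 and of miR-208b, and miR-486, so that arms of a hairpin were counted separately. The lesser arm miR-208b-5p, with a mean of 4.75 CPM, had a log2 fold change of 0.67 (adjusted p = 0.454 in edgeR). miR-208b-3p, encoded in the main slow myosin gene, had 142, 109 and 189 CPM in QHMM, against 57.9, 65.9 and 56.9 CPM in STH, and its log2 fold change was 1.27 (standard error 0.29) at an adjusted p of 0.0419 in edgeR. miR-499-3p, encoded in another slow myosin gene, had 699, 301 and 484 CPM in QHMM, against 223, 202 and 136 CPM in STH, and its log2 fold change was 1.35 (standard error 0.31) at an adjusted p of 0.0419. Every QHMM library lay above every STH library for both, but the calls were close to the threshold: each passed in 7 of 17 alternatives. With 1 library left out, the adjusted p ran over 0.0374 to 0.184 for miR-499-3p, which passed only without QHMM replicate 2, and over 0.0448 to 0.184 for miR-208b-3p, which passed only without QHMM replicate 1. The most abundant was miR-499-5p with 3130, 1233 and 2989 CPM in QHMM, against 969, 1195 and 615 CPM in STH (log2 fold change 1.35, adjusted p = 0.0782 in edgeR). It passed in 3 of 17 alternatives, with DESeq2 (adjusted p = 0.0236), with no filter on low counts (adjusted p = 7.75e-05) and without QHMM replicate 2 (adjusted p = 0.0255). QHMM replicates 1 and 3, the libraries highest in miR-133, were also the highest in miR-499-5p, and QHMM replicate 2 lay next to the STH libraries in both. miR-486, which muscle shares with red blood cells, had 22.5 CPM and a log2 fold change of 0.43 (adjusted p = 0.616). The median log2 fold change of the members was 0.087 over the same libraries. miR-208a-3p, best known from heart, had a mean of 1.67 CPM and was not tested.

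miRNAs known to act in growth or differentiation of myoblasts were taken from another list, of which 26 names were tested. None passed the threshold in either direction with edgeR or DESeq2 and 0 had an unadjusted p under 0.05 with either, 11 had a positive log2 fold change, and the median was -0.092. The 3 most abundant were miR-26a at 39171 CPM (-0.20, adjusted p = 0.712), miR-125b at 8457 CPM (0.14, adjusted p = 0.794) and miR-23a at 7743 CPM (-0.015, adjusted p = 0.979).

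The markers of other cells in these libraries were measured beside the members. The summed level of the 4 endothelial names was 12781 to 27421 CPM in QHMM and 23285 to 25304 CPM in STH, and that of the 5 smooth muscle names was 32472 to 44574 CPM in QHMM and 40233 to 53020 CPM in STH. The 5 fibroblast names summed to 2028 to 2843 CPM in QHMM and 1948 to 3744 CPM in STH. The 9 leukocyte names summed to 1790 to 1966 CPM in QHMM and 1189 to 1465 CPM in STH, higher in each QHMM library. The list was split, however. Of its 6 tested names 3 had a positive log2 fold change, miR-150, miR-142-3p and miR-142-5p, while miR-223-3p, miR-223-5p and miR-155-5p had a negative one. The median was 0.032, against 0.031 over all names. The 14 epithelial names summed to at most 32.1 CPM in any library, and 12 of them were at 0 in at least 1 library. No name of these lists or of the red blood cell list passed the threshold in edgeR. At an unadjusted p under 0.05 stood miR-451-5p, miR-142-3p and miR-142-5p, of which miR-451-5p and miR-142-3p passed with DESeq2. The part of these cells in the values of the members was not tested.

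Names with a profile like that of a leading member were found by the root-mean-square difference of log2 CPM, each centred on its mean over the 6 libraries, among 302 names of known miRNAs with a mean of at least 10 CPM. The 3 nearest to miR-1 were miR-30e-5p (0.10), miR-191 (0.12) and miR-677-5p (0.12), where the median of all names was 0.42. The 3 nearest to miR-206-3p were miR-378d (0.11), miR-19b (0.11) and miR-26b (0.12), with a median of 0.40. The 3 nearest to miR-133 were miR-324-3p (0.11), miR-106b (0.14) and miR-3557-3p (0.16), with a median of 0.43. Between the members, miR-1 and miR-206-3p differed by 0.19, miR-1 and miR-133 by 0.42, and miR-206-3p and miR-133 by 0.48. miR-133 thus stood as far from miR-1 and miR-206-3p as the median name did, or farther. The values describe 6 libraries of a single tissue, and names of small spread lie near each other by construction.

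Of the genes of these miRNAs, the RefSeq table of the assembly ARS-UI_Ramb_v3.0, another build than that of the deposited table, held MIR133 (oar-mir-133) on chromosome 13, between the protein-coding genes SLCO4A1 and GATA5. Its chromosome is that of one of the miR-1 hairpins. The distance between the hairpins was not analysed here.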

How the data were processed

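The authors made size-selected single-end cDNA libraries from total RNA of longissimus muscle with an Ion kit. Each column of the deposited table holds the counts of a library, not normalized, with a row for every mature miRNA entry or predicted locus. Build (Oar_v3.1) and tool (DESeq) are those of the submitters' processing notes. Aligner, miRNA caller and the treatment of a read that matches several rows: not given in the sources used here. Library totals over all rows were 8062231 to 10276427 counts in QHMM and 8681817 to 11282332 in STH. A total may hold a read more than once. A share then comes out lower for rows whose reads are listed once, and can come out higher for rows whose reads are repeated. The members and the lists of other miRNAs were chosen with earlier results of these data known.

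Of several rows with a name (450 names), the row with the highest total stood. QHMM was set over STH in a fit without covariates (R 4.3.3, edgeR 4.0.16), with TMM factors after filterByExpr. The test was the robust quasi-likelihood F test, from which the standard error was taken, at a threshold of 0.05 after Benjamini-Hochberg adjustment. The method was tested on simulated data. DESeq2 1.42.0 served as an alternative. Ratios within libraries were compared with exact permutation tests in scipy 1.17.1, and levels were computed with pandas 2.3.3. Libraries of a breed differed by a chi-square per degree of freedom of at least 109, so that none was a copy of another of its breed. This check sets the difference against counting error only and cannot show whether the libraries are from different animals. Alternatives were other factors, scaling to names that are no members, other filters, DESeq2, the replicate block, summed rows, 1 feature per sequence, known names only, and leaving out each library. Named in full are the leading row and the most abundant 5p arm of miR-1, miR-133 and miR-206, any member past the threshold, the 3 nearest profiles, and of the 2 lists those past the threshold and the most abundant.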

Additional observations from a re-analysis of the deposited data

How the results depend on the processing

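No member passed an adjusted p of 0.05 under any of the 17 alternatives, with a lowest adjusted p of 0.110 for miR-133 without QHMM replicate 2. Same-numbered libraries correlated by 0.061, 0.239 and 0.119 in their deviations from the breed means, and the numbers were not taken as pairs. With the replicate block 0 members passed, and the calls of miR-499-3p (adjusted p = 0.0623) and miR-208b-3p (adjusted p = 0.0719) in edgeR were lost. These also missed the threshold with upper-quartile factors, library totals alone, at least 10 counts and known names only (adjusted p of 0.0507 to 0.0778). Of 204 alternative log2 fold changes of the 12 members, 182 kept their sign. miR-133 (0.30 to 0.58), miR-206-3p (-0.45 to -0.19), miR-133c (0.26 to 0.48), miR-1-3p (-0.91 to -0.35), miR-1-5p (0.31 to 0.48) and miR-1b-5p (-0.86 to -0.48) kept theirs in all. The others changed sign in some alternatives, for causes that were not tested. For miR-1 the value was -0.028 with upper-quartile factors, -0.035 with at least 10 counts in every library, -0.011 with summed rows, -0.0062 with known names only and -0.00084 with the replicate block. miR-133b-5p was 0.0032 with no filter on low counts. miR-133a-5p was 0.00046 with library totals alone, 0.071 with no filter on low counts and 0.053 with summed rows. With each library left out, miR-1 ran from -0.21 to 0.091, miR-1a-2-5p from -0.17 to 0.55, miR-206-5p from -0.45 to 0.45, miR-133b-5p from -0.43 to 0.10, miR-1a-1-5p from -0.11 to 0.74 and miR-133a-5p from -0.15 to 0.096. The log2 difference of the 5p arm of miR-206 per miR-206-3p ran from -0.27 to 0.84 and that of miR-133b-5p to miR-133a-5p from -0.31 to 0.080. The ratios among miR-1, miR-133 and miR-206-3p kept their direction.

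Levels depend on the total: miR-1 had a mean of 262399 CPM over all rows, 525736 CPM with summed rows, where both hairpins count, and 761924 CPM relative to names that are no members. miR-133 had 81850, 81850 and 235663 CPM in the same order, and miR-206-3p 25813, 25851 and 74370 CPM. Depth limits the members with few counts.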
